A study of Mus musculus with 23 samples.

Results

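The enzymes that activate NEDD8, pass it to substrates and trim or remove it were followed at the RNA level. The samples were mouse hippocampal neuron cultures in which Nedd8 could be deleted. The 10 genes were taken by their Ensembl identifiers from the 56941 genes of the count tables, and 10 of 10 were present and passed the filter on low counts. They are Nae1 and Uba3, the subunits of the NEDD8 E1 enzyme, Ube2m and Ube2f, the NEDD8 E2 enzymes, Dcun1d1 to Dcun1d5, the DCN1-like co-E3 proteins, and Senp8, a NEDD8 protease.

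The cells were primary cultures from the hippocampi of newborn NEDD8cKO mice, in which exons 2 and 3 of Nedd8 are flanked by loxP sites. Neurons of both groups carried the floxed alleles in homozygous form, so deletion depended on the virus alone. At day 1 in vitro the neurons received lentivirus expressing either RFP (the RFP group, 11 libraries) or CRE recombinase tagged with RFP (the CRE group, 12 libraries), both under the Synapsin1 promoter, which is active in neurons. The cultures also hold cells in which this promoter is not expected to work. The labels give day 12 in culture for the harvest, and the sources do not all name the same day. Each library is named by a number from 1 to 3 and a library number within it (Cre1-3 is the third CRE library of number 1). The first number is called a set here. The number of sets, 3, equals the N of animals or biological replicates given for the RNA sequencing in the study, but neither the labels nor Methods say in words that a set is one of these. The libraries of a set may therefore share an animal or culture, and p-values measure only the spread between these libraries, which may be partly technical.

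NEDD8 is a small protein related to ubiquitin. It is activated by the heterodimer of Nae1 and Uba3, handed to an E2 enzyme and joined to lysines of its targets, the best known of which are the cullins, scaffolds of the cullin-RING ubiquitin ligases. Ube2m works with the RING protein Rbx1 on most cullins and Ube2f works with Rnf7 (also called RBX2) on Cul5, while DCN1-like proteins hold the charged E2 against the cullin and speed the transfer. The COP9 signalosome takes NEDD8 off cullins again, and Senp8 (DEN1) processes the NEDD8 precursor and removes NEDD8 from other proteins.

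Groups were compared over 21 libraries, 11 CRE and 10 RFP, with totals of 7430401 to 17112815 counts. Cre3-3 (1546796 counts) and RFP3-2 (24.2% of its counts in one ribosomal RNA gene) were not in this comparison. The study's Methods name another pair as removed, Cre1-3 and Cre3-3, so Cre1-3 is kept here against Methods. Of the libraries kept, Cre1-3 and RFP2-4 stood apart, since their counts followed the GC content of the genes with a Spearman coefficient of 0.747 and 0.508 over 14346 genes, against -0.141 to 0.277 in the other 19. The results for the members are therefore given with and without them, as 21 and as 19 libraries (10 CRE, 9 RFP), and those for other genes over 21 libraries, with the 19 named where a call differs. Values are normalised counts (CPM, counts scaled to a common library size), with the TMM factors of edgeR. Each gene was tested with the quasi-likelihood method of edgeR, p-values were adjusted by Benjamini-Hochberg across every tested gene, and an adjusted p under 0.05 counted as a call. By this rule 30.2% of 14488 genes were called between CRE and RFP in 21 libraries (16.4% higher and 13.8% lower in CRE), and 38.1% of 14666 genes in 19 libraries (19.4% higher and 18.7% lower).

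The labels were checked on Nedd8 itself. It lay between 44.1 and 76.0 CPM in the RFP libraries (median 62.4) and between 5.92 and 18.0 CPM in the CRE libraries (median 12.1). The groups did not overlap, and the log2 fold change was -2.44 ± 0.17 (SE, adjusted p = 7.0e-11), or -2.41 ± 0.16 over 19 libraries. Counts are summed over all Nedd8 exons, so transcripts of a recombined allele, which keep the exons outside the deletion, can still be counted. Nedd8 also shares 331 exonic bases with Gmpr2 on the opposite strand, which had 983 counts over all libraries. Neuronal markers were present in both groups, but their summed level was lower in CRE. The 6 markers of neurons summed to 4407 to 5636 CPM in RFP and 1948 to 4426 CPM in CRE libraries, and 4 of the 6 were called lower (5 over 19 libraries). The 4 markers of glutamatergic neurons summed to 1839 to 3701 against 610.4 to 1207 CPM, with 3 called lower (Camk2a, Slc17a7 and Neurod6) and Slc17a6 higher. Of 6 markers of the oligodendrocyte lineage 4 were called lower (637.5 to 1754 against 423 to 1909 CPM). Over 19 libraries 5 were, and the CRE range was 423 to 980.6 CPM. Of 4 markers of dividing cells 4 were called lower, at 132 to 238 against 1.91 to 143 CPM (24.1 to 143 CPM in the 10 CRE libraries without Cre1-3). Of 6 astrocyte markers 1 was higher and 2 were lower (1575 to 3780 against 714 to 3165 CPM), and of 3 GABA markers 1 was higher (820.8 to 1645 against 581 to 1462 CPM). Over 19 libraries the GABA marker Slc32a1 was no longer called (log2 fold change 0.36, adjusted p = 0.062) and Gad2 was called lower (-0.34, adjusted p = 0.0072). Microglial markers summed to at most 7.70 CPM, and Cx3cr1, P2ry12, Aif1 and C1qa were too low to test, while of the other 2 Tmem119 was called higher (log2 fold change 3.21, adjusted p = 0.00052). Markers of endothelial and mesenchymal cells summed to 14.2 to 94.6 CPM in RFP and 11.8 to 200.6 CPM in CRE libraries, with 1 of 4 tested called higher. In bulk RNA of this kind, fewer cells of a type and less RNA per cell cannot be told apart, and the part of these shifts in the results below was not tested.

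Among the 10 neddylation enzymes, 1 was called between CRE and RFP over 21 libraries (10% of them, against 30.2% of all genes tested). This was Dcun1d4, which was lower in CRE. Over 19 libraries Dcun1d4 was again lower and Dcun1d3 was called higher (20% of the members, against 38.1% of all genes). The same 2 members were called over the libraries that Methods leave (Dcun1d3 adjusted p = 0.027, edgeR), where 5492 of 14482 genes were called. The median log2 fold change of the 10 was 0.02 over 21 libraries, beside 0.02 for all genes tested. The summed CPM of the 10 lay between 507.9 and 661 in RFP and between 481.1 and 599 in CRE libraries. The group by set interaction asks whether the CRE effect differs between the sets. Over 21 libraries none of the 10 passed this test (lowest adjusted p = 0.98, with 0.0069% of all genes called), which does not show equal effects.

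**Figure D1:**
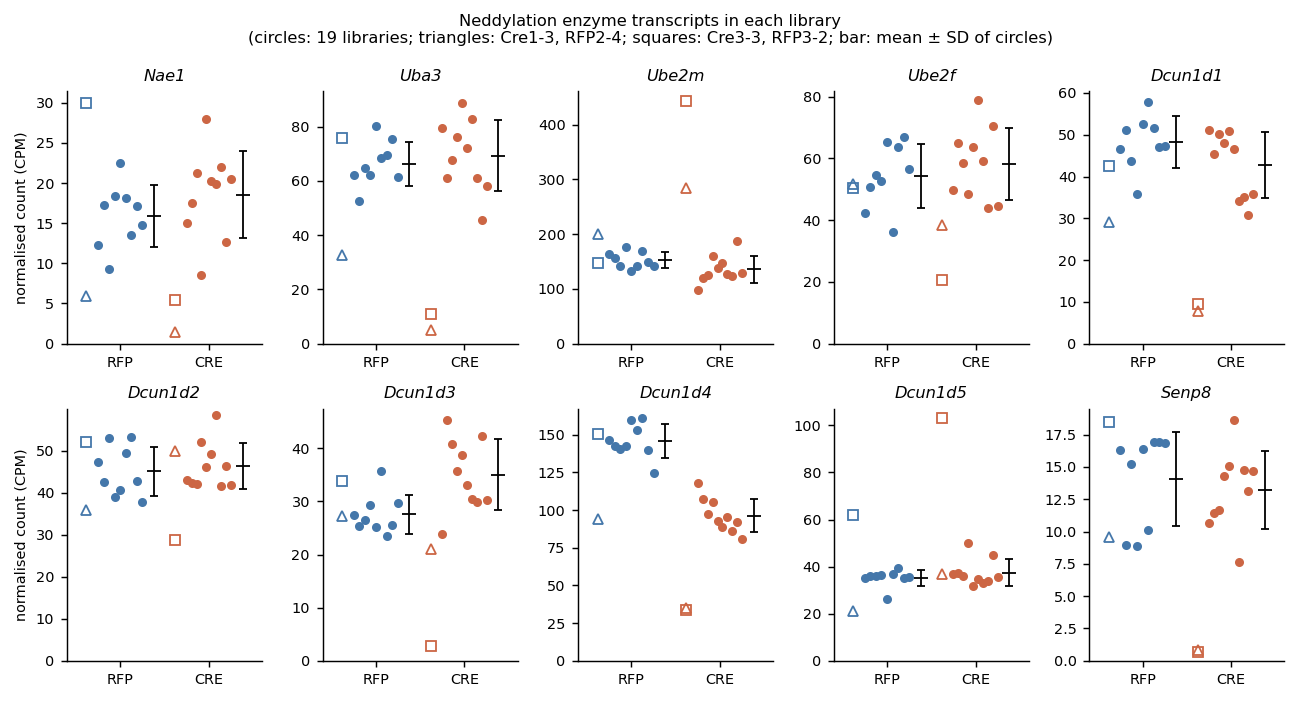
Normalised counts (CPM, linear axes from 0) of the 10 neddylation enzyme genes in each library, by group. Circles are the 19 libraries without a strong trend with GC content, with their mean ± SD as a bar, triangles are Cre1-3 and RFP2-4, and squares are Cre3-3 and RFP3-2. The circles of the groups are fully apart for Dcun1d4 (81.0 to 118 in CRE against 125 to 161 in RFP) and overlap for the other 9 genes. How many of all genes tested have groups fully apart was not counted.

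Before the groups are compared gene by gene, the RFP libraries give the order of the members by transcript level. These are libraries of whole cultures, which hold other cells besides neurons. On the scale of CPM per kilobase of the Ensembl canonical transcript, Ube2m was the most abundant in the 9 RFP libraries (92.9 ± 9.0, SD, n = 9), and its lowest library (80.7) lay above the highest library of every other member. Dcun1d4 followed at 35.4 ± 2.7, again with no overlap with the next gene. Uba3 (14.9 ± 1.8) and Dcun1d2 (14.8 ± 1.9) came next and could not be ordered, since Uba3 was the higher of the pair in 4 of 9 libraries. Dcun1d1 (9.67 ± 1.25), Ube2f (9.33 ± 1.78) and Nae1 (8.08 ± 1.98) formed a further group with overlapping ranges, in which Dcun1d1 exceeded Ube2f in 3 of 9 libraries and Ube2f exceeded Nae1 in 5 of 9. Dcun1d5 (6.34 ± 0.64), Dcun1d3 (4.599 ± 0.61) and Senp8 (3.82 ± 0.98) were the lowest. Dcun1d5 was above Dcun1d3 in 9 of 9 libraries although their ranges overlapped, and Dcun1d3 was above Senp8 in 6 of 9. The order depends on the transcript length used below the first places: with all annotated exons as the length, Ube2m and Dcun1d4 stayed first and second, while Nae1, whose annotated exons span 10633 bases against 1970 in its canonical transcript, moved from place 7 to place 10.

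In the CRE libraries the order of the first 4 was kept (Ube2m 82.7 ± 15.2, Dcun1d4 23.4 ± 2.7, Uba3 15.6 ± 2.9 and Dcun1d2 15.2 ± 1.8, n = 10), but Dcun1d4 no longer stood clear of Uba3. The lowest CRE library of Dcun1d4 was at 19.7 and the highest of Uba3 at 20.0 CPM per kilobase, although Dcun1d4 was the higher in 10 of 10 libraries. Dcun1d1 stood at place 7 in place of 5, behind Ube2f and Nae1, from which its range was not separate.

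**Figure D2:**
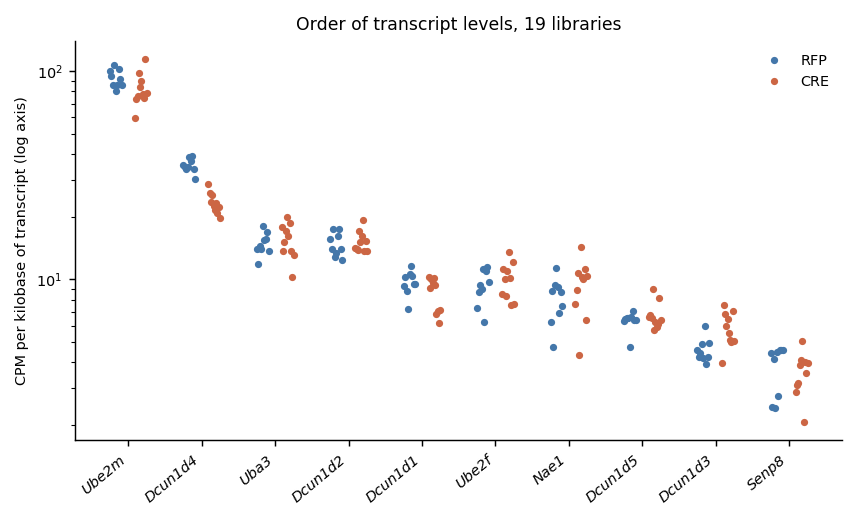
Levels of the 10 genes in CPM per kilobase of canonical transcript (log axis), one point per library, for 9 RFP and 10 CRE libraries, ordered by the RFP mean. Ube2m is the highest in both groups, Dcun1d4 is second with a lower level in CRE, and of the neighbours from Uba3 down only one pair in each group has separate ranges (Dcun1d2 and Dcun1d1 in RFP, Dcun1d2 and Ube2f in CRE).

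The E1 subunits did not pass the test. Nae1 encodes the regulatory subunit (chr8:105237508-105261283 in GRCm39, minus strand, 20 exons in the canonical transcript). In RFP it had a lowest value of 5.91, a median of 16.0 and a highest value of 22.5 CPM, and in CRE 1.498, 19.8 and 28.1 CPM. The groups overlapped, and the log2 fold change was 0.17 ± 0.29 (95% interval -0.43 to 0.77, adjusted p = 0.71). Both lowest values belonged to the libraries with the GC trend, RFP2-4 and Cre1-3. Without them the ranges were 9.30 to 22.5 and 8.53 to 28.1 CPM and the change was 0.20 ± 0.19 (adjusted p = 0.42).

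Uba3 encodes the catalytic subunit, whose cysteine takes up NEDD8 (chr6:97158848-97182727, minus strand, 17 exons). RFP libraries had 32.6, 63.4 and 80.2 CPM as lowest, median and highest values, and CRE libraries 5.18, 67.7 and 88.9 CPM. The log2 fold change was -0.003 ± 0.25 (adjusted p = 0.99) over 21 and 0.05 ± 0.11 (95% interval -0.17 to 0.27, adjusted p = 0.77) over 19 libraries. In set 3 alone the CRE libraries (45.7 to 61.3 CPM) lay below the RFP libraries (61.3 to 75.3 CPM), while in sets 1 and 2 the groups overlapped and the CRE mean was the higher over 19 libraries. Uba3 did not pass the interaction test over 21 libraries (adjusted p = 0.98). These include Cre1-3, with Uba3 at 5.18 CPM, so that test does not decide on the pattern over 19 libraries.

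Since the E1 is a heterodimer, the ratio of its transcripts was followed within each library, which removes the scaling of the library. Uba3 stood above Nae1 per kilobase in every one of the 21 libraries, by 1.35 to 3.08 times in RFP (median 1.89) and by 1.23 to 3.96 times in CRE (median 1.545). The log2 ratio averaged 0.95 ± 0.37 in the 10 RFP and 0.75 ± 0.48 in the 11 CRE libraries (± SD), a difference of -0.20 (two-sided permutation test, p = 0.31, 0.44 when adjusted over the 2 ratios tested). One library, Cre2-1, held the highest ratio of all, with Nae1 at 8.53 and Uba3 at 76.3 CPM. Over 19 libraries the difference was -0.145 (permutation p = 0.50, 0.50 when adjusted over 2). Without Cre2-1 it was -0.32 (p = 0.041), and with each set left out in turn it ran from -0.43 to -0.05 (p = 0.051 to 0.83). These p-values of the alternatives are not adjusted over the 2 ratios.

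The E2 enzymes also did not pass the test. Ube2m, also known as UBC12, is the most GC-rich of the 10 genes (59% of exonic bases; chr7:12769047-12772249, minus strand, 6 exons). It lay at 132, 153 and 201 CPM in RFP and at 98.0, 129 and 284 CPM in CRE (lowest, median and highest). Of 11 CRE libraries 6 were below every RFP library and 1, Cre1-3, was above every one of them. Over 21 libraries it changed by -0.09 ± 0.14 on the log2 scale (adjusted p = 0.68). Over 19 libraries it was -0.19 ± 0.09 (95% interval -0.38 to 0.01, adjusted p = 0.12), so the direction was lower but the call was not made. Set 1 carried most of it, with CRE at 98.0 to 125 and RFP at 141 to 164 CPM, against log2 ratios of the means of -0.06 and -0.07 in sets 2 and 3 of the 19 libraries.

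Ube2f (chr1:91176217-91225284, plus strand, 10 exons) had 36.3, 53.7 and 66.8 CPM in RFP and 38.3, 58.5 and 78.8 CPM in CRE as lowest, median and highest values. The ranges were nearly the same, and the log2 fold change was 0.04 ± 0.13 (adjusted p = 0.85), or 0.08 ± 0.12 over 19 libraries (95% interval -0.17 to 0.33, adjusted p = 0.65). Per kilobase Ube2f ran at 0.072 to 0.139 of Ube2m in RFP (median 0.099) and at 0.038 to 0.153 in CRE (median 0.13). The difference in the mean log2 ratio was 0.18 over 21 libraries (permutation p = 0.44, 0.44 adjusted over 2) and 0.28 over 19 (p = 0.069, 0.14 adjusted). Cre1-3, where the ratio was lowest, decided this value. Without it alone the difference was 0.33 (permutation p = 0.036, not adjusted over the 2 ratios).

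The 5 DCN1-like genes are paralogs, and Dcun1d4 was the member whose RNA differed most clearly. In the RFP libraries their canonical transcripts were unequal. Of the summed CPM per kilobase of the 5 genes, Dcun1d4 made up 49.95% ± 2.19 (SD, n = 9), Dcun1d2 20.9% ± 1.8, Dcun1d1 13.7% ± 1.4, Dcun1d5 8.98% ± 1.01 and Dcun1d3 6.52% ± 0.92. In the CRE libraries Dcun1d4 made up 39.1% ± 2.4 (SD, n = 10) and remained the most abundant, and the shares of Dcun1d2 and Dcun1d3 were 25.5% ± 2.9 and 9.80% ± 1.76. These shares use the same counts as the fold changes and are given without a test.

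Because the genes are related, the reference sequence was examined for stretches in which a read could belong to either paralog. Coding sequences of the canonical transcripts (GENCODE M39 on GRCm39) shared 55.6 to 72.6% of aligned bases. The closest pairs were Dcun1d1 with Dcun1d2 (72.6%, longest identical run 29 bases) and Dcun1d4 with Dcun1d5 (69.2%, 23 bases), and in the other 8 pairs the longest identical run was 9 to 16 bases. The windows of 90 coding bases around the longest identical run of the closest pairs are shown, with that run in capitals. Other windows were not compared for their number of differences. Dcun1d4 is read from exon 6 (chr5:73688855-73688917) and exon 7 (chr5:73691949-73691975), plus strand, and Dcun1d5 from exon 3 (chr9:7188754-7188816) and exon 4 (chr9:7189162-7189188), plus strand.
Dcun1d4: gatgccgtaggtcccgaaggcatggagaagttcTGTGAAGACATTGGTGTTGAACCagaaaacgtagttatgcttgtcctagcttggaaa
Dcun1d5: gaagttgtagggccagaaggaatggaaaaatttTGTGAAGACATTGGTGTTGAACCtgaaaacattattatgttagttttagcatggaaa
The windows of Dcun1d1 and Dcun1d2 lie on the minus strand, at chr3:35951613-35951652 (exon 6) and chr3:35949799-35949848 (exon 7), and at chr8:13308947-13308986 (exon 6) and chr8:13307927-13307976 (exon 7).
Dcun1d1: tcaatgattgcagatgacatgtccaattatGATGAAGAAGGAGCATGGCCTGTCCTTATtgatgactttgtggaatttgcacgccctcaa
Dcun1d2: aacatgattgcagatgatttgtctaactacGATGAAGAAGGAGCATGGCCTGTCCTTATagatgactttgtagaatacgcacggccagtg
In these windows the pairs differ at 18 (Dcun1d4 and Dcun1d5) and 17 (Dcun1d1 and Dcun1d2) of 90 bases. Outside the family, the coding exons of Dcun1d4, Dcun1d3, Dcun1d5 and Nae1 held no stretch of 31 bases that occurs elsewhere in the genome. Dcun1d1 did, since Tes3-ps on chromosome 13 carries identical runs of up to 183 bases of its coding sequence. Its count may therefore include or lose reads of this copy, to which the tables assign 218 counts over all libraries against 11049 for Dcun1d1. The longest runs of the other members elsewhere were shorter, at 71 bases for Ube2f, 62 for Senp8, 45 for Uba3 and 41 for Dcun1d2 and Ube2m. Only coding exons were searched, so untranslated sequence, which is also counted, was not examined.

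Dcun1d4 (chr5:73638343-73718196, plus strand, 11 exons) fell in CRE. Its RFP values were 94.1, 143 and 161 CPM and its CRE values 35.15, 92.5 and 118 CPM (lowest, median and highest). Over 21 libraries 6 of 11 CRE libraries lay below every RFP library. The overlap came from RFP2-4 alone, the lowest RFP library, which also has the GC trend. The log2 fold change was -0.65 ± 0.14 (95% interval -0.94 to -0.36, adjusted p = 0.00092). Over 19 libraries the ranges were 125 to 161 CPM in RFP and 81.0 to 118 CPM in CRE and did not overlap, and the change was -0.62 ± 0.07 (95% interval -0.77 to -0.46, adjusted p = 1.7e-07). It held in each set of these 19 libraries, where the CRE and RFP means were 107.5 and 143 CPM in set 1, 95.4 and 152 CPM in set 2 and 86.4 and 142 CPM in set 3, with no overlap in any set. By p Dcun1d4 ranked 470 of 14666 genes tested over 19 libraries. How many of all these genes have groups fully apart was not counted. With the libraries summed per set, as 3 sums against 3, the change was -0.65 (edgeR, adjusted p = 0.00056). Dcun1d4 shares 96 exonic bases with a gene on the opposite strand, Gm73755, for which no count was used here. Over 21 libraries 4 of 6 neuron markers, 3 of 4 glutamatergic, 4 of 6 oligodendrocyte lineage and 4 of 4 dividing cell markers were also called lower. The glutamatergic marker Slc17a6 was called higher, and of 6 astrocyte markers 2 were lower and 1 was higher. The GABA, microglial, and endothelial and mesenchymal lists each had 1 called higher and 0 lower. The part of these shifts in the change of Dcun1d4 was not tested.

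**Figure D3:**
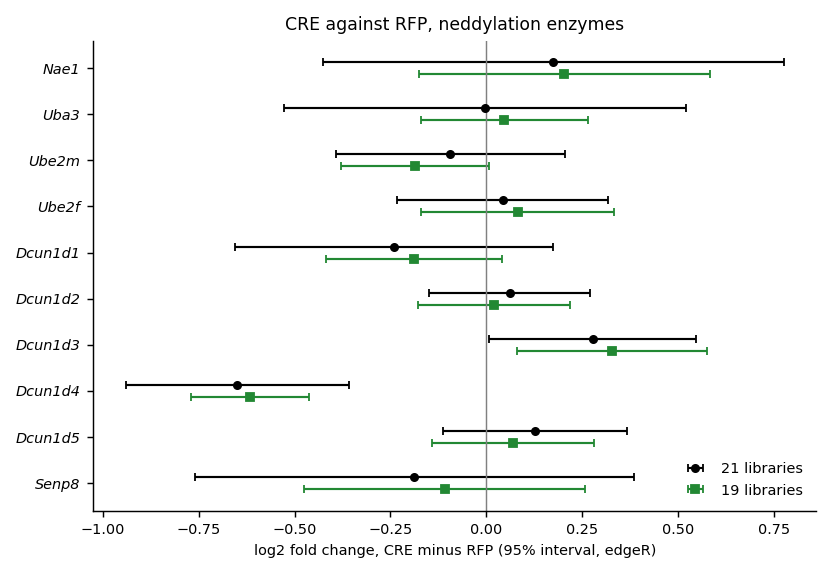
Log2 fold change (CRE minus RFP) of each gene with its 95% interval from edgeR, over 21 libraries (circles) and over 19 libraries without Cre1-3 and RFP2-4 (squares). The intervals of Dcun1d4 lie wholly below 0 in both fits, those of Dcun1d3 lie above 0, and those of the other 8 genes include 0.

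Dcun1d3 (chr7:119429726-119495521, minus strand, 3 exons), a member of the family that is attached to membranes by a lipid, moved the other way, and its call depended on the libraries. It had 23.5, 26.9 and 35.7 CPM in RFP and 21.1, 33.0 and 45.4 CPM in CRE as lowest, median and highest values. Of the CRE libraries 4 of 11 were above every RFP library and 1, Cre1-3, was below every one. The 21 libraries gave a log2 fold change of 0.28 ± 0.13 (adjusted p = 0.12) and the 19 libraries one of 0.33 ± 0.12 (95% interval 0.08 to 0.57, adjusted p = 0.033). Leaving out Cre1-3 alone was enough for the call (0.33, adjusted p = 0.026). The set means were higher in CRE in 3 of 3 sets, and the groups were apart in set 3 only (29.9 to 42.3 against 23.5 to 29.7 CPM). Dcun1d3 overlaps Lyrm1 on the opposite strand by 640 exonic bases, and Lyrm1 had 1515 counts over all libraries, so reads of the pair can be told apart only if the counting used strand.

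The remaining DCN1-like genes did not pass the test. Dcun1d1 (chr3:35945341-35991594, minus strand, 7 exons), the homologue of the founding yeast protein, had RFP values of 29.2, 47.3 and 57.9 CPM and CRE values of 7.90, 45.4 and 51.0 CPM. Its log2 fold change was -0.24 ± 0.20 (adjusted p = 0.40), or -0.19 ± 0.11 over 19 libraries (95% interval -0.42 to 0.04, adjusted p = 0.19). The lowest CRE value was that of Cre1-3. In set 3 the CRE libraries (30.8 to 35.7 CPM) were below the RFP libraries (47.2 to 51.5 CPM), while in sets 1 and 2 the groups overlapped.

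Dcun1d2 (chr8:13305961-13338142, minus strand, 7 exons) was at 35.8, 42.6 and 53.1 CPM in RFP and at 41.5, 46.1 and 58.5 CPM in CRE. The log2 fold change was 0.06 ± 0.10 (95% interval -0.15 to 0.27, adjusted p = 0.71). Over 19 libraries the change was 0.02 ± 0.10 (95% interval -0.18 to 0.22, adjusted p = 0.90). In Cre1-3 its level (49.99 CPM) was near that of the other CRE libraries. Dcun1d5 (chr9:7184509-7211322, plus strand, 8 exons) was at 20.98, 35.7 and 39.2 CPM in RFP and at 31.8, 36.0 and 50.1 CPM in CRE. Its log2 fold change was 0.13 ± 0.12 (adjusted p = 0.46), or 0.07 ± 0.10 over 19 libraries (95% interval -0.14 to 0.28, adjusted p = 0.65).

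Senp8 (chr9:59641542-59659221, minus strand, 2 exons) had, with Nae1, the lowest counts of the members, and 1 to 218 of its own in a library. Per kilobase of canonical transcript Nae1 stood higher (place 7 in RFP and 6 in CRE), while Senp8 was at place 10 in both groups. RFP values were 8.84, 15.7 and 16.9 CPM and CRE values 0.817, 13.1 and 18.6 CPM. The RFP libraries fell into a lower range of 8.84 to 10.1 CPM (4 libraries, RFP2-4 among them) and an upper range of 15.2 to 16.9 CPM (6 libraries), while the CRE libraries other than Cre1-3 spread over 7.61 to 18.6 CPM. The log2 fold change was -0.19 ± 0.28 (adjusted p = 0.67), or -0.11 ± 0.18 over 19 libraries (95% interval -0.48 to 0.26, adjusted p = 0.68).

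The members were also compared by GC content in the libraries that stood apart. In Cre1-3 the AT-rich Senp8, Uba3, Nae1 and Dcun1d1 (39.1 to 40.6% GC) deviated from the median of the 10 other CRE libraries by -4.07, -3.76, -3.74 and -2.54 on the log2 scale, and the GC-rich Ube2m by 1.15. Across the 10 members the Pearson coefficient between GC content and this deviation was 0.74 in Cre1-3, 0.835 in RFP2-4, 0.504 in Cre3-3 and -0.454 in RFP3-2. These are descriptions over 10 genes that share a library. Dcun1d5, the most AT-rich member (38.9% GC), did not follow the others. It deviated by 0.04 in Cre1-3 and was higher by 1.53 in Cre3-3, where Senp8 had 1 count. Cre1-3 had 0.26% of its counts in mitochondrial genes, against 6.997 to 9.88% in the 10 CRE libraries with which it was compared. The part of GC content and of other features of these libraries in the deviations was not tested.

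**Figure D4:**
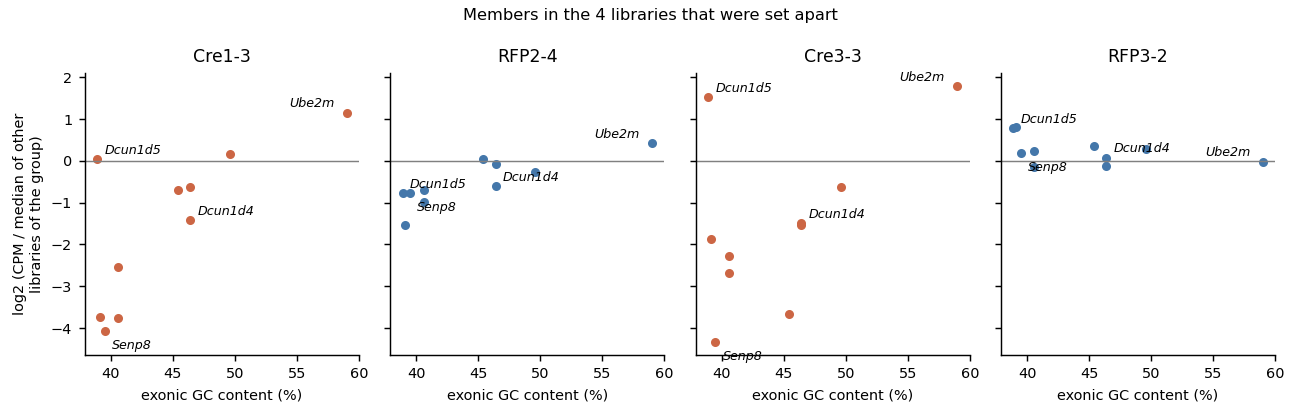
Deviation of each gene (log2 of its CPM over the median of the 10 CRE or 9 RFP libraries of its group, vertical axis) against the GC content of its annotated exons (per cent, horizontal axis) in the 4 libraries that were set apart. In Cre1-3 and RFP2-4 the deviation tends to rise with GC content apart from Dcun1d5 in Cre1-3, and in RFP3-2 no gene is displaced by more than 0.81.

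Variation among the remaining 19 libraries was then compared between members, as the Pearson coefficient of log2 CPM centred within each group. Of the 45 pairs of members, 1 passed a permutation test after Benjamini-Hochberg adjustment over the 45. Nae1 and Dcun1d5 varied in opposite directions (r = -0.80, n = 19, permutation p = 9.0e-05, adjusted p = 0.0041, and rho = -0.65, permutation p = 0.00225, adjusted p = 0.10). Without the libraries farthest from the median of Nae1, Cre2-1 and RFP1-3, r was -0.76. Within sets 1, 2 and 3 it was -0.53, -0.88 and -0.97, and it was -0.95 in the 10 CRE and -0.53 in the 9 RFP libraries. The extreme libraries were Cre2-1 (Nae1 at 8.53 and Dcun1d5 at 50.1 CPM) and Cre2-2 (28.1 and 31.8 CPM). RFP3-2, which was not used, went against this pattern with both genes high (30.0 and 62.0 CPM). The E1 subunits Nae1 and Uba3 were not among the pairs that passed, nor were the E2 enzymes.

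**Figure D5:**
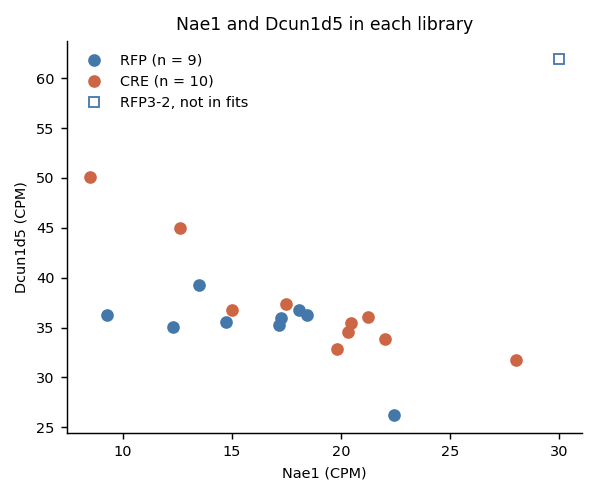
Nae1 against Dcun1d5 (both in CPM), one point per library, for 9 RFP and 10 CRE libraries and RFP3-2. Dcun1d5 is highest where Nae1 is lowest (Cre2-1) and lowest where Nae1 is high (RFP2-2, at 22.5 and 26.3 CPM), and RFP3-2 lies outside the series.

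Across all genes, the transcripts that varied most like the E1 and E2 members over these 19 libraries were named by the highest Pearson coefficient. They were Mob4 (0.885), Cmpk1 (0.867) and Actr10 (0.844) for Uba3, Rnf146 (0.86), Gpr61 (0.814) and Cnst (0.797) for Ube2f, Sox12 (0.81), Rnf187 (0.809) and Siah2 (0.798) for Ube2m, and Zfp825 (0.758), Eef1a1-ps1 (0.722) and Ect2 (0.713) for Nae1. The coefficients are the highest of 14329 genes and share the depth and composition of the same libraries.

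The enzymes' partners and substrates were read from the same fit. Of 7 other NEDD8 ligases, 2 were called higher and 1 lower over 21 libraries. Rbx1, the RING subunit that pairs with Ube2m, averaged 93.8 ± 7.4 CPM over the 10 RFP libraries and 65.8 ± 16.6 CPM over the 11 CRE libraries (± SD, as in the other values of this kind), and fell by 0.53 on the log2 scale (SE 0.13, adjusted p = 0.0034). Rnf7, the RING partner of Ube2f, did not pass (47.6 ± 7.1 and 53.0 ± 9.6 CPM, log2 fold change 0.14 ± 0.12, adjusted p = 0.41). Mdm2, the ligase of p53, rose from 43.9 ± 8.2 to 73.2 ± 15.2 CPM (log2 fold change 0.72 ± 0.14, adjusted p = 0.00021), and the HECT ligase Smurf1 rose from 57.7 ± 5.9 to 74.7 ± 15.1 CPM (0.35 ± 0.11, adjusted p = 0.015).

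Of 8 cullins, the main NEDD8 substrates, edgeR called 1 lower and none higher (1 was higher at an unadjusted p under 0.05). DESeq2 and limma-voom each called 2 lower and none higher. Cul4a was at 71.9 ± 10.1 CPM in RFP and 59.75 ± 6.6 CPM in CRE (log2 fold change -0.29 ± 0.10, adjusted p = 0.028). Over 19 libraries Cul5 and Cul9 were also called lower. The median log2 fold change of the cullins was -0.11 over 21 libraries. Of 4 genes of cullin exchange and NEDD8 turnover, 1 was called higher, Cand2, a relative of the adaptor exchange factor Cand1, which was at 15.1 ± 3.7 and 21.8 ± 6.7 CPM (0.50 ± 0.18, adjusted p = 0.033).

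Of 11 genes of the COP9 signalosome and of other deneddylases, 2 were called lower and none higher by edgeR, DESeq2 or limma-voom (0 higher at an unadjusted p under 0.05). These were Cops9 (37.0 ± 3.9 and 28.0 ± 7.3 CPM, log2 fold change -0.42 ± 0.14, adjusted p = 0.024) and Gps1, which encodes signalosome subunit CSN1 (95.5 ± 9.2 and 79.9 ± 15.2 CPM, -0.28 ± 0.11, adjusted p = 0.0497). Cops5, the catalytic subunit, did not pass (46.4 ± 6.5 and 46.0 ± 6.7 CPM, adjusted p = 0.86). The median log2 fold change of the list was -0.16, beside 0.02 for all genes.

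The enzymes of other ubiquitin-like modifiers gave the comparison with the E1, E2 and protease members. Of 8 other E1 genes 1 was called over 21 libraries, Uba7, the E1 of ISG15, at a very low level (0.41 and 1.35 CPM, log2 fold change 1.72 ± 0.63, adjusted p = 0.040). It was not called over 19 libraries (adjusted p = 0.088), where Uba1, the main E1 of ubiquitin, was called lower (-0.17, adjusted p = 0.030). Of 33 other E2 genes tested 6 were higher and 5 lower (33.3%), with Ube2l6, the E2 of ISG15 (3.91 ± 1.40 and 11.5 ± 3.8 CPM, 1.53 ± 0.23, adjusted p = 1.7e-05), Ube2c, an E2 of mitosis (15.5 ± 5.1 and 4.94 ± 3.73 CPM, -1.67 ± 0.35, adjusted p = 0.00073), and Atg10, an E2 of autophagy (4.85 ± 1.86 and 2.34 ± 0.75 CPM, -1.06 ± 0.27, adjusted p = 0.0041), having the smallest p. Over 19 libraries 7 were higher and 7 lower (42.4%), where Ube2z was also called higher and Ube2v2 and Birc6 were also called lower. Of 6 SUMO proteases of the Senp family, relatives of Senp8, none was called over 21 libraries by edgeR, DESeq2 or limma-voom (0 at an unadjusted p under 0.05), and 1, Senp5, was called higher over 19 libraries (log2 fold change 0.22, adjusted p = 0.038). Over 21 libraries the called shares of these lists ran from 0 to 42.9%, beside 30.2% for all genes.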

How the data were processed

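RNA of 23 libraries (12 CRE, 11 RFP) was sequenced by the authors after an Illumina Stranded mRNA preparation, and aligned with STAR 2.7.8a to GRCm39, per the submitters' processing notes. The authors deposited whole-number counts per Ensembl gene and library from featureCounts 1.5.0-p1, not normalized. The strand setting and the handling of reads with several matches are not given in the sources used here, so counts of overlapping genes and of genes with copies are uncertain. Among the members, Dcun1d2 shares 339 exonic bases with Tmco3 and Uba3 shares 74 with Arl6ip5, both on the opposite strand. Ube2f shares 892 with Gm7785 on the same strand. GENCODE M39 named 56323 of 56941 genes, which held 99.951% of counts.

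The main comparison used the 21 libraries of the count table that the study supplies. Methods leave out another pair, Cre1-3 and Cre3-3, which is an alternative here. R 4.3.3 with edgeR 4.0.16 was used (filterByExpr, TMM, estimateDisp, robust glmQLFit, glmQLFTest, Benjamini-Hochberg over 14488 genes), with limma 3.58.1 and DESeq2 1.42.0 as alternatives. CPM used TMM factors over 14382 genes of all 23 libraries, and intervals are at 95%. CPM before a logarithm in correlations had 0.5 added. Permutation tests had 100000 resamples, and Nae1 to Uba3 and Ube2m to Ube2f ratios were formed per kilobase of Ensembl canonical transcript. Python 3.11.15 (scipy 1.17.1, numpy 2.4.6, pandas 2.3.3) was used for the remaining values, Biopython 1.88 to align sequences and matplotlib 3.10.9 to draw. The fits were tested on simulated counts.

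The genes named are the 10 members, Nedd8, up to 3 called genes of each list with the smallest p, and the 3 genes most similar to each E1 and E2 member. Others (Rnf7, Cops5, Cul5, Cul9, Senp5, Uba1, Ube2z, Ube2v2, Birc6, the marker genes (Slc32a1, Gad2 and Tmem119 among them) and loci that share sequence or exonic bases) were added after their values were seen, as was the pair of Nae1 and Dcun1d5. The members and lists were chosen with earlier results of these data known. No pair of libraries of a group agreed within sampling noise (chi-square per degree of freedom at least 11.47 over 121 pairs). Alternatives covered the libraries, tool, scaling, filter, blocks for set and library number, sums per set, the GC trend and each library or set left out. Sums, block, DESeq2 and limma-voom on 19 libraries were chosen after seeing the data.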

Additional observations from a re-analysis of the deposited data

Results flagged for a closer look

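Within the 10 RFP libraries, 1 value of the 11 genes examined (the 10 members and Nedd8) stood far from the others. Dcun1d3 was at 35.7 CPM in RFP2-3, while the other 9 libraries lay at 23.5 to 29.7 CPM, a gap of 0.497 of the whole range against a limit of 0.466 for 10 libraries. Chance alone flags about 1 in 20 such groups. RFP2-3 had the most counts of all libraries (17112815), and without it the log2 fold change of Dcun1d3 was 0.32 (edgeR, adjusted p = 0.074). The 11 CRE libraries were too many for this rule.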

How the results depend on the processing

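Dcun1d4 was lower in CRE and called in 42 of 42 fits (the main one and 41 alternatives), with log2 fold changes of -0.73 to -0.55 and adjusted p-values of 7.0e-13 to 0.034, the highest without set 2. Dcun1d3 was higher in 42 of 42 and called in 7, so 2 members were called, in place of 1, over the libraries that Methods leave, over 19 libraries (with edgeR, with DESeq2 and with the set as a block), after removal of the GC trend with and without the block, and without Cre1-3. The other 8 members were called in none. Dcun1d5 kept its direction but moved from 0.13 to 0.60 ± 0.31 (SE, edgeR, adjusted p = 0.13) after removal of the GC trend. With the set as a block as well, it was at 0.49 ± 0.30 (adjusted p = 0.21). Among the members with changes near 0 the direction turned. Ube2m was at 0.14 and Ube2f at 0.00 over all 23 libraries. Ube2f was at -0.01 with set and library number as a block. Uba3 was at 0.12 over the libraries that Methods leave and, over 19 libraries, at 0.047 (edgeR), 0.017 (set as a block), 0.051 (DESeq2), 0.042 (limma-voom) and 0.019 (sums per set). It was at 0.01 with upper-quartile factors and without a filter, and at 0.027 and 0.022 after removal of the GC trend without and with the block. Dcun1d2 was at -0.022 with sums per set over 19 libraries. With libraries or sets left out, the ranges were -0.249 to 0.123 for Uba3, -0.080 to 0.146 for Ube2f, -0.075 to 0.157 for Dcun1d2 and -0.462 to 0.028 for Senp8. The cause was not tested.

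Genes called were 6920 without a filter on low counts, where more genes were tested and the median log2 fold change of all genes was 0.14, and 2114 to 5507 with libraries or sets left out (2114 without set 2). Members called were 1 to 2 there. The genes whose CRE effect differed between sets were 1 over 21 libraries (595 at an unadjusted p under 0.05), 0 over 23 (614) and 36 over 19 (1375). The ratio of Ube2f to Ube2m was 0.33 over the libraries that Methods leave (permutation p = 0.028) and -0.08 over all 23, and 0.002 to 0.326 with libraries or sets left out. That of Uba3 to Nae1 ran from -0.428 to -0.053 there, with -0.32 (permutation p = 0.041) without Cre2-1. Deviations of CRE and RFP libraries from their group means had a mean correlation of 0.055 within a set and 0.005 between sets. Within sets 1, 2 and 3 the mean was 0.051, 0.058 and 0.054. For 7 pairs with the same set and library number the correlation was -0.059 to 0.119. The set and the library number were used as blocks only in alternatives. With the set as a replicate block 4267 genes were called and Dcun1d4 was at -0.65 (adjusted p = 0.0015). With set and library number as a block 3152 genes were called. Permuting labels within sets gave -0.20 (p = 0.33) for Uba3 to Nae1 and 0.18 (p = 0.45) for Ube2f to Ube2m. The permutation p-values of these alternatives are not adjusted over the 2 ratios. Senp8 and Nae1 had the lowest counts of the members (3266 in all for Senp8).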
